A study of Mus musculus with 9 samples.

Results

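The interferon-inducible GTPases of the guanylate-binding protein (Gbp) and immunity-related GTPase (Irg) families were examined in the mouse colon carcinoma line MC38-P and in 2 lines selected from it for growth in the liver, MC38-LM3a and MC38-LM3b (the derivatives). The 10 genes were taken by symbol from the 16399 genes that the expression tables list. They were Gbp2, Gbp3, Gbp5, Gbp6, Gbp7, Igtp, Irgm1, Irgm2, Iigp1 and Tgtp2. MC38 cells carrying a GFP-luciferase reporter had been injected into the spleen of immunocompetent C57BL/6 mice, and cells recovered from liver metastases had been passed through 3 rounds of this selection. The paper calls MC38-LM3a and MC38-LM3b independently derived, and its text names MC38-LM1 and MC38-LM2 for the earlier rounds. Whether the 2 derivatives share those rounds was not stated. Each is a single line, and the 3 lines were grown in high-glucose DMEM with no interferon named in the labels or methods. Poly(A) RNA of 3 biological replicates per line was sequenced, 9 libraries in all, and nothing further was given on the source of the replicates, so p-values measure the spread between these libraries. The comparison asks how the GTPase transcripts of liver-selected cells differ from those of the cells they came from.

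Guanylate-binding proteins and immunity-related GTPases are among the most strongly interferon-gamma-induced proteins of mouse cells. Interferon gamma acts through its receptor and the kinases Jak1 and Jak2, and its target promoters carry gamma-activated sites (GAS) and the interferon-stimulated response element (ISRE), which is bound by Irf1. The proteins assemble on the membranes of vacuoles that hold intracellular pathogens. The effector Irg proteins (Iigp1, also called Irga6, and Tgtp2, also called Irgb6) are held inactive on the cell's own membranes by the regulators Irgm1, Irgm2 and Igtp (Irgm3), and the Gbp proteins act beside them in vacuole disruption and in inflammasome activation.

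The promoters of these genes were searched for the elements named above, and stretches of 120 bases (110 before and 10 after the annotated start) are shown for 7 genes because their motif matches sit there. Those of Gbp5 lie partly further upstream, and its sequence is not shown. The stretches come from the RefSeq promoter table of build GRCm38.p6, and the coordinates are of that build, whereas the submitters' processing notes name GRCm39. Of the 10 genes, 8 matched an entry of the table, and Gbp6 and Iigp1 did not. Sequences are given 5′ to 3′ on the strand of the gene, with capitals for matches to the ISRE core GAAANNGAAA or the GAS core TTCNNNGAA, each searched on both strands.
Gbp2, chr3:142620553-142620672 (plus strand): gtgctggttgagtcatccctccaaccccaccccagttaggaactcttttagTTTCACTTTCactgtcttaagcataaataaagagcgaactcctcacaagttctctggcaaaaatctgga
Gbp3, chr3:142559934-142560053 (plus strand): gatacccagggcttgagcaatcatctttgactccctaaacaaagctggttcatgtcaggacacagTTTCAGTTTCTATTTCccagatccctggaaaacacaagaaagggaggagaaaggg
Gbp7, chr3:142530226-142530345 (plus strand): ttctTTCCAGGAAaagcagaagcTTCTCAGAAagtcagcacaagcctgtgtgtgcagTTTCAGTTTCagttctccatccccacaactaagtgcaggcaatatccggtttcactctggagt
Irgm1, chr11:48871411-48871530 (minus strand): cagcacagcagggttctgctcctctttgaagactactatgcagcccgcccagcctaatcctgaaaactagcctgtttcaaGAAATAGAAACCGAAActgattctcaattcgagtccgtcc
Irgm2, chr11:58214867-58214986 (plus strand): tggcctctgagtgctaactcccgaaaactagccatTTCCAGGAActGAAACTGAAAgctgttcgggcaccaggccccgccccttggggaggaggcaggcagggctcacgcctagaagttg
Igtp, chr11:58199446-58199565 (plus strand): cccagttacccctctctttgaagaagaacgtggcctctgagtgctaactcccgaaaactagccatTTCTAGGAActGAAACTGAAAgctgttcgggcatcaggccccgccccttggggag
Tgtp2, chr11:49064203-49064322 (minus strand): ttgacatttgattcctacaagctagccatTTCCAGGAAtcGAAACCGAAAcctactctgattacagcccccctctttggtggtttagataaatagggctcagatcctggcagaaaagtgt

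The ISRE core occurred in all 8 searched genes, in the window from 250 bases before to 50 bases after the start. That was 8 of their 9 windows, since Gbp3 has 2, against 3.44% of the 32851 windows of the table. The GAS core occurred in 5 of the 8 genes (Gbp5, Gbp7, Igtp, Irgm2 and Tgtp2), or 5 of the 9 windows, and in 8.30% of all windows. No ISRE match overlapped a GAS match, whereas overlapping pairs of ISRE matches were found in Irgm1 and in 1 of the 2 windows of Gbp3. The ISRE matches began between 70 and 24 bases before the start in every searched gene but Gbp5, where the match began 165 bases before it. In the Gbp genes the ISRE was read on the reverse strand (TTTCAGTTTC in Gbp7 and Gbp3, TTTCACTTTC in Gbp2), and in the Irg genes on the strand of the gene (GAAACTGAAA in Igtp and Irgm2, GAAACCGAAA in Tgtp2 and Irgm1). In Igtp, Irgm2 and Tgtp2 a GAS core stood 2 bases upstream of the ISRE core. This arrangement occurred in 5 of the 32851 windows (0.0152%), and the other two were Tgtp1 and Gm12185, 2 further members of the Irg family. The windows of Igtp and Irgm2 share an unbroken run of 61 bases, so these matches are not independent of each other. A match of letters is a description and not evidence of binding.

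**Figure D1:**
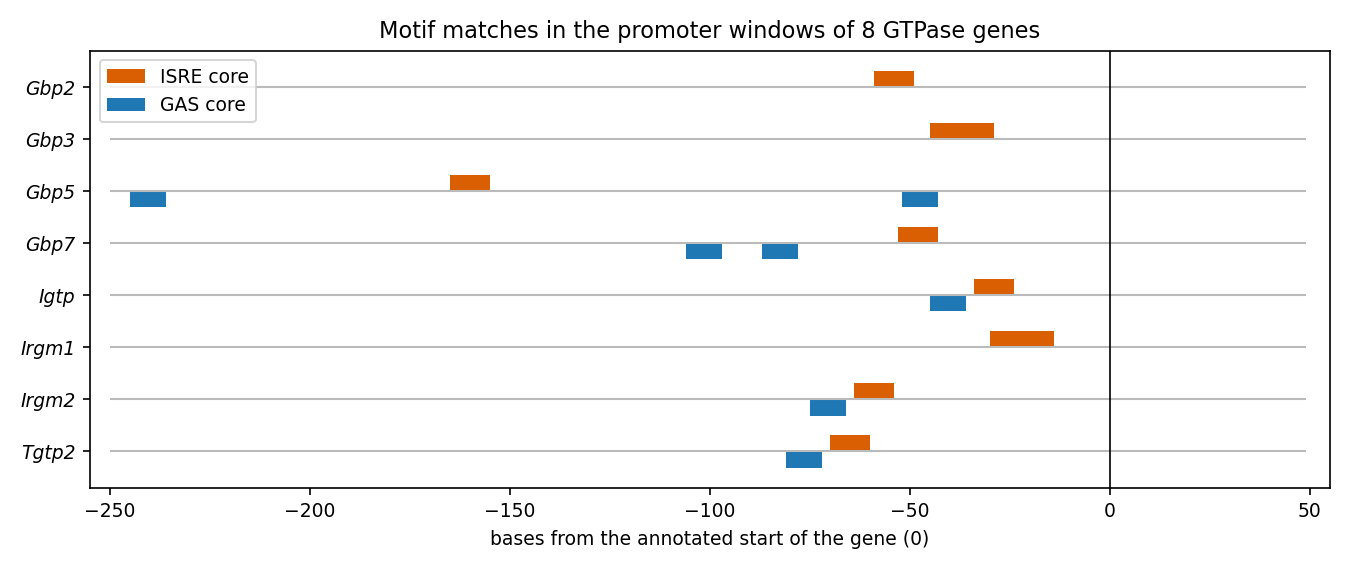
Positions of ISRE core matches (orange) and GAS core matches (blue) in the promoter windows of the 8 searched genes, in bases from the annotated start at 0. The ISRE matches lie within 70 bases of the start in all but Gbp5, and a GAS match lies just upstream of the ISRE in Igtp, Irgm2 and Tgtp2.

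Levels are given in TPM (transcript abundance scaled to a fixed total), which is also scaled by transcript length, so levels of different genes can be set side by side. No counts of reads are given, so sequencing depth is unknown. Between 10875 and 11218 genes per library reached 1 TPM. Replicates of 1 line differed along transcript length, read as the Spearman correlation with length of each library's deviation from its line mean across 11096 genes. The coefficient was 0.64 in MC38-LM3a replicate 3, and -0.55 and -0.51 in replicates 1 and 2 of that line. It was -0.62 in MC38-P replicate 3, and 0.51 and 0.41 in replicates 1 and 2 of that line. Leaving out both replicates 3 thus keeps MC38-P libraries with positive coefficients and MC38-LM3a libraries with negative coefficients. In MC38-LM3b the coefficients lay between -0.013 and 0.016, and genes are not independent replicates. The longest transcripts of the GTPase genes run from 2022 bases (Igtp) to 5614 bases (Gbp7), against a median of 3427 bases for the tested genes. The counts of tested members called higher are given with and without replicate 3 of both MC38-P and MC38-LM3a. So are the values of Gbp7 and Irgm2 against MC38-P.

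Summed over the 10 genes, the level ran from 43.05 to 52.97 TPM in MC38-P, from 86.81 to 97.84 TPM in MC38-LM3a and from 111.09 to 119.99 TPM in MC38-LM3b. The 3 lines did not overlap. Irgm1 was the most abundant member in every library and made up 55.4% to 59.4% of the sum in MC38-P, against 52.6% to 53.3% in MC38-LM3a and 51.0% to 52.9% in the other derivative. Gbp2 came next in every line, and its range was apart from that of Irgm1 above it and from the gene below it. In MC38-P, Gbp3, Igtp, Gbp7 and Irgm2 followed at mean levels from 3.20 to 2.39 TPM, and neighbours in this order overlapped. In MC38-LM3a, Gbp7 and Igtp shared a mean of 6.47 TPM and overlapped with Irgm2, and Gbp3 lay below them. In MC38-LM3b, Gbp7 stood above Igtp, Igtp overlapped with Irgm2, and Irgm2 with Gbp3. Tgtp2 and then Iigp1 followed in all lines. Gbp5 was the lowest member in MC38-P and stood above Gbp6 in both derivatives, with overlapping ranges in MC38-LM3b.

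**Figure D2:**
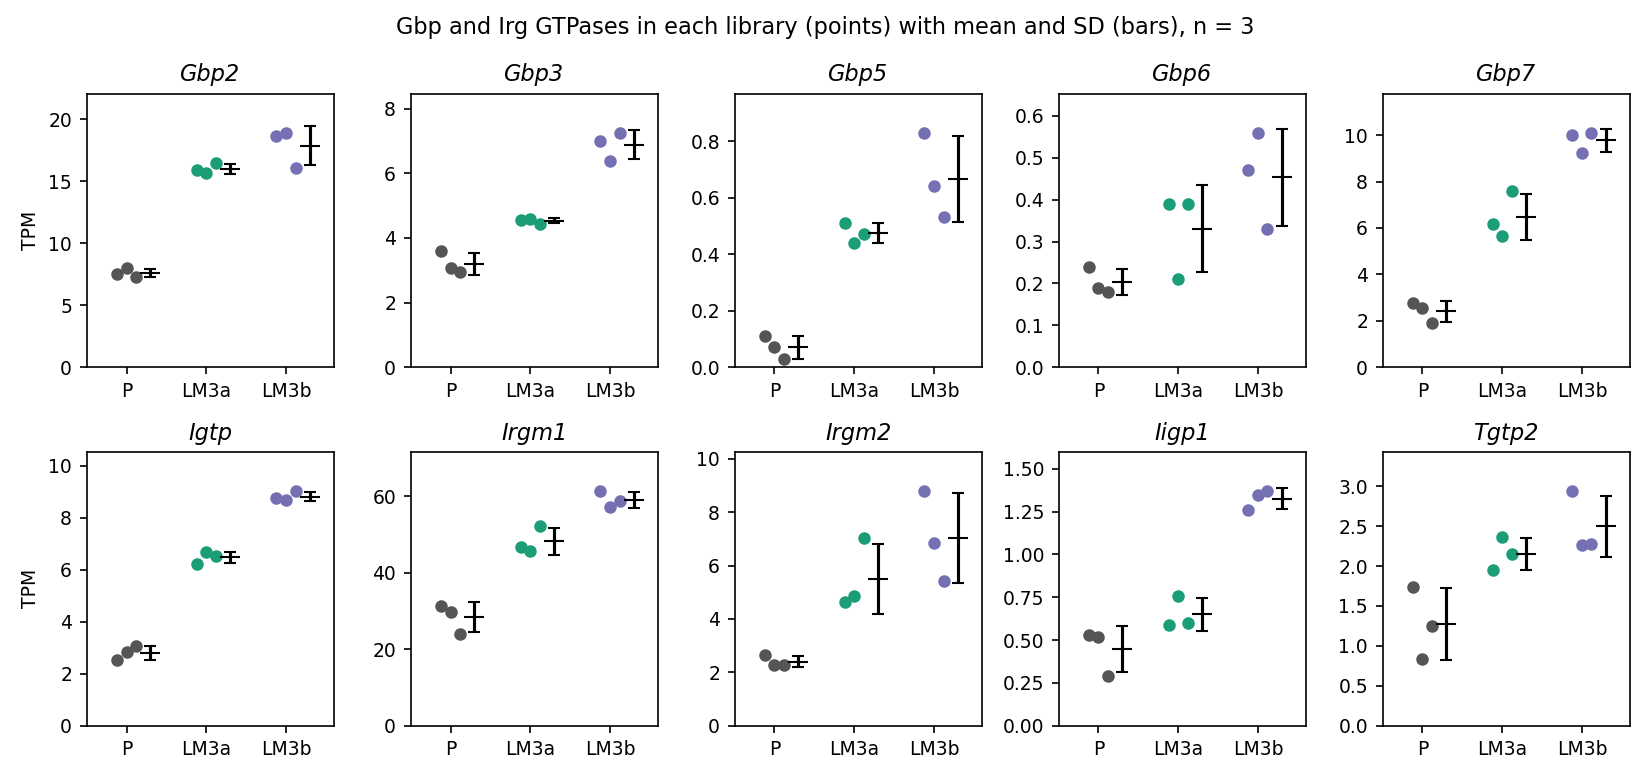
TPM of the 10 GTPase genes in each of the 9 libraries (points), with the mean and SD of each line as bars (n = 3), on linear axes that differ between genes. MC38-P is the lowest line for each gene on average, and only for Gbp6 does a MC38-LM3a library fall within the MC38-P range.

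Fold changes were estimated with limma on log2(TPM + 1), a scale that understates the change of low genes, and p-values were adjusted over 11287 genes that reached 1 TPM in 3 libraries. Of the 10 members, 8 passed that filter and Gbp5 and Gbp6 did not. Iigp1 passed it only through its MC38-LM3b libraries, so its difference from the other lines is in part set by the filter. In MC38-LM3a against MC38-P, 7 of the 8 tested members rose and 0 fell, where 14.1% of all tested genes rose and 13.8% fell. Gbp7 alone was a differentially expressed gene (DEG, an adjusted p-value under 0.05 with a log2 fold change above 1), a class that held 1.39% of the tested genes on the higher side. This count became 4 with a pseudocount of 0.1, 5 with that and no filter, and 2 without MC38-P replicate 2 or 3 or MC38-LM3a replicate 1 or 2. In MC38-LM3b against MC38-P, 8 of 8 rose (7 of 7 without Iigp1), where 35.6% of all tested genes rose and 11.2% fell, and 5 were DEGs (Gbp2, Gbp7, Igtp, Irgm1 and Irgm2) against 2.76% of all tested genes. The 5 became 3 after a correction for GC content and length and 2 after centring on the median or quantile normalization. Without any filter on low values all 10 genes could be tested, 7 rose in MC38-LM3a and 10 in MC38-LM3b, against 9.61% and 23.6% of 16395 genes. The 7 in MC38-LM3a then included Gbp5, whereas Tgtp2 lost its call (adjusted p = 0.0550). Both comparisons use the same MC38-P libraries, so they are not independent of each other.

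The background of MC38-LM3b was itself shifted: the median log2 fold change of all tested genes was 0.21 against MC38-P and 0.21 against MC38-LM3a, and it was -0.00016 for MC38-LM3a against MC38-P. The median over the tested members was 0.84 for MC38-LM3a, and for MC38-LM3b it was 1.09. When each library was centred on its median, 22.9% of all tested genes rose and 26.4% fell in MC38-LM3b, 7 of the 8 tested members rose, and their median was 0.86. Tgtp2 was the exception, with a log2 fold change of 0.41 and an adjusted p of 0.0517. Every library of the derivative lay above every MC38-P library for 9 of the 10 genes in MC38-LM3a, against 15.5% of all listed genes, and for 10 of 10 in MC38-LM3b, against 39% of all listed genes. Gbp6 was the gene that overlapped in MC38-LM3a. Without MC38-P replicate 3 and MC38-LM3a replicate 3, 7 of the 8 tested members rose in MC38-LM3a and 8 of 8 in MC38-LM3b, with medians of 0.66 and 1.02. In that fit 18.4% of all tested genes rose and 45.2% fell in MC38-LM3a (median -0.14), and 46.3% rose and 19.0% fell in MC38-LM3b (median 0.14).

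**Figure D3:**
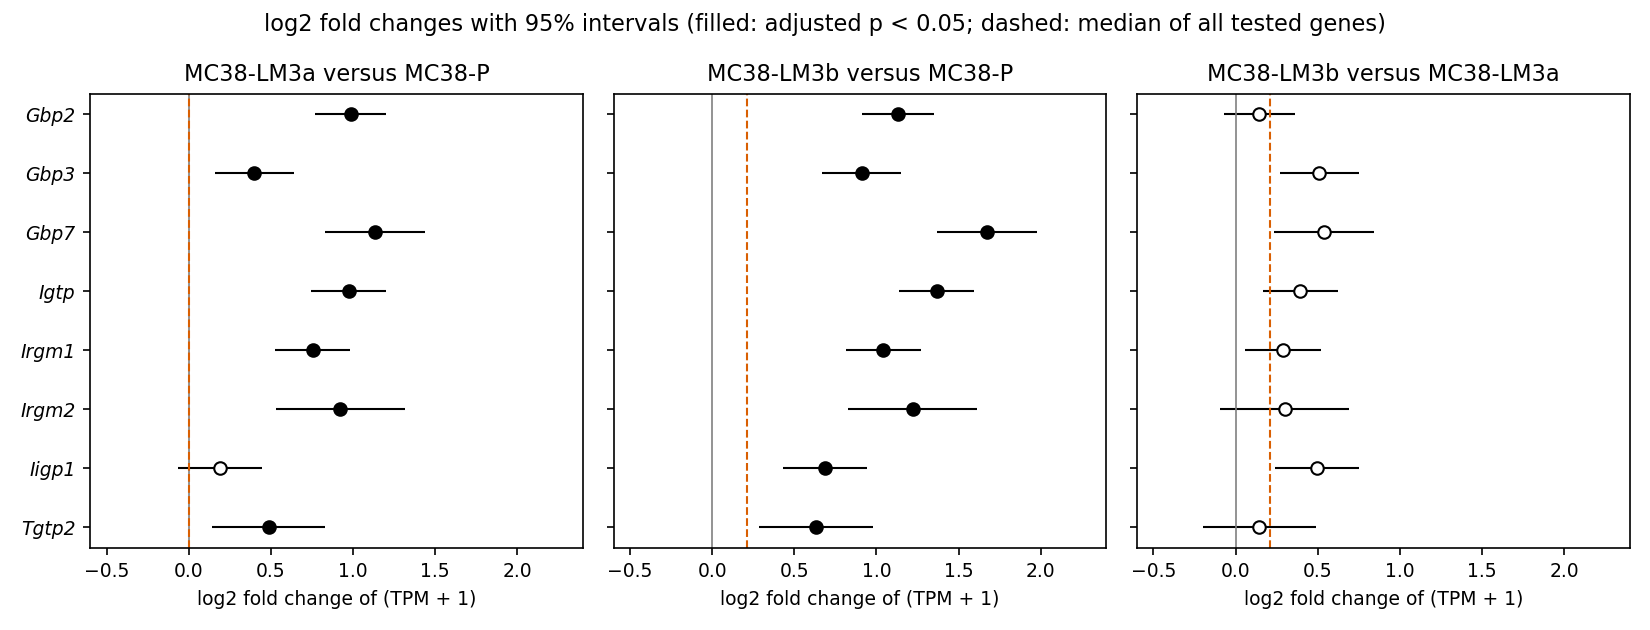
log2 fold changes of the 8 tested members with 95% confidence intervals (lines) for the 3 comparisons, on the log2(TPM + 1) scale, with filled points for an adjusted p under 0.05. Dashed lines mark the median of all tested genes, 0.21 in both comparisons of MC38-LM3b. All points but Iigp1 are filled in MC38-LM3a versus MC38-P, all are filled in MC38-LM3b versus MC38-P, and none is filled between the derivatives.

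Irgm1 encodes the regulator that is known for its part in autophagy and in the survival of T cells and blood stem cells. It was found at 31.35, 29.75 and 23.85 TPM in MC38-P, at 46.76, 45.64 and 52.19 TPM in MC38-LM3a and at 61.31, 57.09 and 58.75 TPM in MC38-LM3b. The lines were stacked without overlap, with MC38-P lowest and MC38-LM3b highest. The log2 fold change against MC38-P was 0.75 (95% CI 0.52 to 0.98, adjusted p = 0.000419) in MC38-LM3a and 1.04 (0.81 to 1.27, adjusted p = 4.13e-05) in MC38-LM3b. The mean level was 1.70-fold and 2.09-fold that of MC38-P. In absolute TPM this was the largest gain of any member.

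Irgm2, a regulator that lies beside Igtp on chromosome 11, had 2.63, 2.29 and 2.26 TPM in MC38-P, 4.64, 4.86 and 7.02 TPM in MC38-LM3a and 8.79, 6.86 and 5.42 TPM in MC38-LM3b. Both derivatives lay above MC38-P and overlapped with each other, and the MC38-LM3a library with the highest value was replicate 3. The log2 fold change was 0.92 (95% CI 0.53 to 1.32, adjusted p = 0.00314) in MC38-LM3a and 1.22 (0.83 to 1.61, adjusted p = 0.000415) in MC38-LM3b. Without MC38-P replicate 3 and MC38-LM3a replicate 3 it was 0.73 in MC38-LM3a, with an adjusted p of 0.00349, and 1.19 in MC38-LM3b, with an adjusted p of 9.70e-05. Igtp (Irgm3), a protein of the endoplasmic reticulum and lipid droplets, had 2.52, 2.85 and 3.06 TPM in MC38-P, 6.22, 6.66 and 6.53 TPM in MC38-LM3a and 8.75, 8.66 and 9.02 TPM in MC38-LM3b. Its values were tight within each line, and the lines did not overlap. Igtp rose by 0.97 (95% CI 0.75 to 1.20, adjusted p = 7.97e-05) in MC38-LM3a and by 1.37 (1.14 to 1.59, adjusted p = 5.68e-06) in MC38-LM3b on the log2 scale. The mean TPM of Irgm2 and of Igtp each stood at 2.30-fold that of MC38-P in MC38-LM3a, and at 2.93-fold and 3.14-fold in MC38-LM3b. Igtp and Irgm2 are similar in sequence, so reads shared between them may have been split by the counting, whose rules were not stated in the sources used here.

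The effectors were the least abundant Irg members. Iigp1, which oligomerises on the vacuole membrane, was found at 0.53, 0.52 and 0.29 TPM in MC38-P, at 0.59, 0.76 and 0.60 TPM in MC38-LM3a and at 1.26, 1.35 and 1.37 TPM in MC38-LM3b. Each line lay above the one before it without overlap, and only the MC38-LM3b libraries passed 1 TPM. Its log2 fold change stood at 0.19 in MC38-LM3a (95% CI -0.06 to 0.45, adjusted p = 0.254) and 0.69 in MC38-LM3b (0.43 to 0.95, adjusted p = 0.00098). Tgtp2 (Irgb6), first known as a T cell-specific GTPase, had 1.74, 0.84 and 1.25 TPM in MC38-P, 1.95, 2.36 and 2.15 TPM in MC38-LM3a and 2.94, 2.27 and 2.28 TPM in MC38-LM3b. Both derivatives stood above MC38-P and overlapped with each other. Tgtp2 rose by 0.49 (95% CI 0.14 to 0.83, adjusted p = 0.0392) in MC38-LM3a and by 0.63 (0.29 to 0.98, adjusted p = 0.00792) in MC38-LM3b on the log2 scale. In MC38-LM3a this call was lost in 10 of 19 alternative settings, with an adjusted p of up to 0.160 when MC38-P replicate 2 was left out.

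Tgtp1 is a near-identical copy of Tgtp2, so the division of reads between them is uncertain. Its log2 fold change was -0.20 (adjusted p = 0.395) in MC38-LM3a and 0.03 (adjusted p = 0.889) in MC38-LM3b. The TPM of the 2 copies summed to 2.20 ± 0.719 in the parental line, 2.82 ± 0.241 in MC38-LM3a and 3.47 ± 0.688 in MC38-LM3b (SD, n = 3). The summed values of each derivative overlapped with those of MC38-P, so the separation seen for Tgtp2 alone was not seen for the pair.

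Of the guanylate-binding proteins, Gbp2 was the most abundant. Gbp2, an isoprenylated protein that coats pathogen vacuoles, was found at 7.51, 7.97 and 7.30 TPM in MC38-P, at 15.93, 15.64 and 16.45 TPM in MC38-LM3a and at 18.62, 18.91 and 16.02 TPM in MC38-LM3b. Both derivatives lay far above the parental line, and they overlapped with each other. The log2 fold change was 0.99 (95% CI 0.77 to 1.20, adjusted p = 5.19e-05) in MC38-LM3a and 1.13 (0.91 to 1.35, adjusted p = 1.66e-05) in MC38-LM3b. The mean level was 2.11-fold and 2.35-fold that of MC38-P.

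Gbp7, which helps assemble the phagosomal oxidase, showed the largest fold change of the tested members in each derivative with all 9 libraries in the fit. It had 2.75, 2.56 and 1.90 TPM in MC38-P, 6.15, 5.66 and 7.60 TPM in MC38-LM3a and 10.02, 9.22 and 10.11 TPM in MC38-LM3b. The lines were stacked without overlap. Gbp7 rose by 1.13 (95% CI 0.83 to 1.44, adjusted p = 0.000196) in MC38-LM3a and by 1.67 (1.37 to 1.98, adjusted p = 1.10e-05) in MC38-LM3b on the log2 scale, and the mean TPM was 2.69-fold and 4.07-fold that of MC38-P. Gbp7 also has the longest transcript of the 10 genes, and its lowest MC38-P library and its highest MC38-LM3a library were the replicates numbered 3. Without these 2 libraries its log2 fold change for MC38-LM3a was 0.92 (adjusted p = 1.80e-05), and for MC38-LM3b it was 1.56 (adjusted p = 3.89e-07), so it was no longer a DEG in MC38-LM3a. In that fit Igtp, at 1.01 (adjusted p = 9.00e-06), and Gbp2, at 0.94 (adjusted p = 1.15e-05), stood above Gbp7 in MC38-LM3a. Igtp was then the 1 member DEG there. With values of all 9 libraries corrected for GC content and length, the log2 fold change of Gbp7 was 1.15 for MC38-LM3a, with an adjusted p of 4.97e-07, and 1.39 for MC38-LM3b, with an adjusted p of 9.94e-08.

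Gbp3 lies between Gbp7 and Gbp2 in the same cluster. Its values were 3.59, 3.08 and 2.93 TPM in MC38-P, 4.56, 4.58 and 4.44 TPM in MC38-LM3a and 7.00, 6.39 and 7.26 TPM in MC38-LM3b. The lines did not overlap, and MC38-LM3a stood closer to MC38-P than to MC38-LM3b. The log2 fold change was 0.40 (95% CI 0.16 to 0.64, adjusted p = 0.0193) in MC38-LM3a and 0.91 (0.67 to 1.15, adjusted p = 0.000124) in MC38-LM3b. The call in MC38-LM3a was lost in 5 of 19 alternatives, among them those without MC38-P replicate 2 (adjusted p = 0.0739), MC38-LM3a replicate 1 (0.0605) and MC38-LM3a replicate 2 (0.0559).

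Gbp5 and Gbp6 were below the filter in every library. Gbp5, a promoter of NLRP3 inflammasome assembly, was listed at 0.11, 0.07 and 0.03 TPM in MC38-P, at 0.51, 0.44 and 0.47 TPM in MC38-LM3a and at 0.83, 0.64 and 0.53 TPM in MC38-LM3b. The lines did not overlap, but the values are given to 2 decimals and the parental level is close to 0. In the test without a filter, Gbp5 rose by 0.46 in MC38-LM3a (adjusted p = 0.00158) and by 0.64 in MC38-LM3b (adjusted p = 0.000242). With a pseudocount of 0.1 in place of 1, the same differences were 1.78 and 2.18. Gbp6 had 0.24, 0.19 and 0.18 TPM in MC38-P, 0.39, 0.21 and 0.39 TPM in MC38-LM3a and 0.47, 0.56 and 0.33 TPM in MC38-LM3b. MC38-LM3a overlapped with both other lines. Without a filter MC38-LM3a differed by 0.14 (adjusted p = 0.232), and Gbp6 rose by 0.27 in MC38-LM3b (adjusted p = 0.0220). Gbp6 also has close relatives among the Gbp genes beside it, so its reads may be shared.

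Between the derivatives, 0 of the 8 tested members passed the limma test, where 0.0354% of all tested genes (4 of 11287) were higher in MC38-LM3b. At an unadjusted p under 0.05, 5 of the 8 were higher in MC38-LM3b (Gbp3, Gbp7, Igtp, Irgm1 and Iigp1), or 4 of 7 without Iigp1, which the filter kept through MC38-LM3b, a level that 35.5% of all tested genes reached in that direction. Every MC38-LM3b library lay above every MC38-LM3a library for 6 of the 10 genes (these 5 and Gbp5), against 29.1% of all listed genes. The log2 differences were 0.54 for Gbp7 (95% CI 0.23 to 0.84), 0.51 for Gbp3 (0.27 to 0.75), 0.50 for Iigp1 (0.24 to 0.75), 0.39 for Igtp (0.17 to 0.62) and 0.29 for Irgm1 (0.06 to 0.52), each with an adjusted p of 0.119. The intervals of Irgm2 (-0.09 to 0.69), Gbp2 (-0.07 to 0.36) and Tgtp2 (-0.20 to 0.49) included 0.

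This result turned on 1 library. Without MC38-LM3a replicate 3, 6 of the 8 tested members (5 of 7 without Iigp1) were higher in MC38-LM3b: Gbp7 by 0.64 (adjusted p = 0.00436), Gbp3 by 0.50 (0.00718), Iigp1 by 0.48 (0.0141), Igtp by 0.40 (0.0151), Irgm2 by 0.46 (0.0320) and Irgm1 by 0.35 (0.0162). In the same fit 52.2% of 11256 genes were higher in MC38-LM3b and the median of all genes was 0.29. When the values were corrected for GC content and length, 0 members passed and the median difference fell from 0.35 to 0.18. With centring on the median it was 0.12, and Gbp2 and Tgtp2 turned to -0.077 each.

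**Figure D4:**
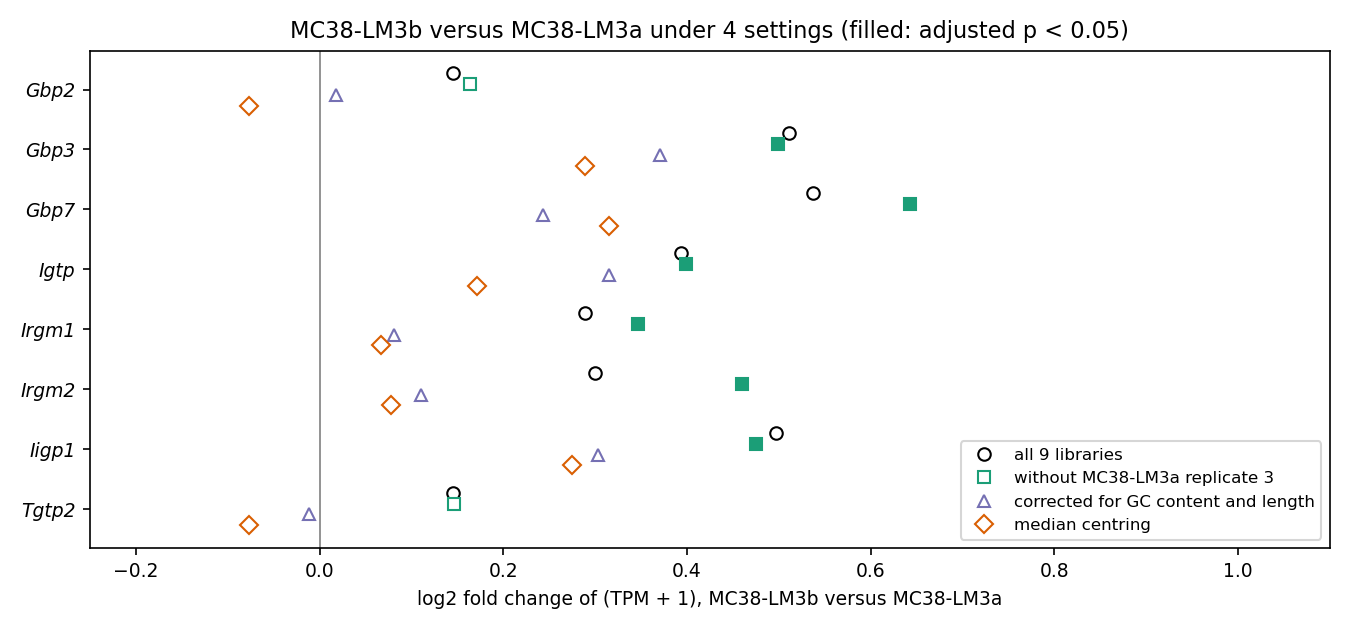
log2 differences between MC38-LM3b and MC38-LM3a for the 8 tested members under 4 settings, on the log2(TPM + 1) scale, with filled symbols for an adjusted p under 0.05. Without MC38-LM3a replicate 3 (squares) 6 members are filled, and under the other settings none is, with Gbp2 and Tgtp2 at -0.077 after median centring (diamonds).

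Few other interferon-inducible GTPases could be tested. Of 25 such genes on a further list, which included Mx and Gvin genes, 16 were listed and 4 passed the filter. In MC38-LM3a 0 of the 4 were called by limma, 1 had an unadjusted p under 0.05 (9930111J21Rik1), and in MC38-LM3b 2 of the 4 rose, where 14.1% and 35.6% of all tested genes rose. Ifi47, a further Irg GTPase that was tested but not on the list, rose in both derivatives. 9930111J21Rik1 had a log2 fold change of 0.48 (adjusted p = 0.0667) in MC38-LM3a and rose by 1.11 (adjusted p = 0.000761) in MC38-LM3b. Irgq, a quasi-GTPase, had 0.05 (adjusted p = 0.850) and rose by 0.50 (adjusted p = 0.0221). F830016B08Rik, a relative of Iigp1, had -0.26 (adjusted p = 0.532) and 0.27 (adjusted p = 0.424). The medians of the 4 were -0.076 and 0.39. Without the filter, 1 of the 16 listed genes rose in MC38-LM3a and 4 in MC38-LM3b, against 9.61% and 23.6% of 16395 genes. The one in MC38-LM3a was Gbp4, at 0.29 (adjusted p = 0.0138), and in MC38-LM3b Gbp4, at 0.43 (adjusted p = 0.00146), and Gbp9, at 0.40 (adjusted p = 0.0241), joined 9930111J21Rik1 and Irgq. Gbp4 and Gbp9 stayed below 1 TPM in every library. Whether the members differ from these genes as a group was not tested.

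The genes that flank the members were compared as neighbours on the chromosome. Gbp5, Gbp7, Gbp3 and Gbp2 form a cluster on chromosome 3 between Pdlim5 and Kyat3. Pdlim5, a cytoskeletal scaffold, had 0.29 (adjusted p = 0.108) in MC38-LM3a and rose by 0.62 (adjusted p = 0.00286) in MC38-LM3b, and Kyat3, an aminotransferase, rose by 0.38 (adjusted p = 0.0359) and 0.39 (adjusted p = 0.0223). Without the filter the call of Kyat3 in MC38-LM3a was lost at the same log2 fold change (adjusted p = 0.0573). The Igtp and Irgm2 pair on chromosome 11 is flanked by Mrpl22, a mitochondrial ribosomal protein, at -0.19 (adjusted p = 0.195) and -0.36 (adjusted p = 0.0157), and by Zfp692 at -0.15 (adjusted p = 0.694) and 0.34 (adjusted p = 0.260). Lrrc8b, a volume-regulated channel subunit beside Gbp6, fell by 0.63 (adjusted p = 0.0147) in MC38-LM3a and had -0.26 (adjusted p = 0.202) in MC38-LM3b, and Zfp951 on the other side had -0.09 (adjusted p = 0.742) and 0.07 (adjusted p = 0.751). The genes beside Iigp1 were Isoc1, at -0.31 (adjusted p = 0.0590) and -0.17 (adjusted p = 0.207), and Smim3, at 0.14 (adjusted p = 0.288) and 0.11 (adjusted p = 0.341).

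Irgm1 and Tgtp2 are flanked by Trim7, at -0.13 (adjusted p = 0.703) and 0.03 (adjusted p = 0.906), and by Ifi47. Ifi47 (Irgd) is itself an Irg GTPase that the lists did not hold. It had 4.25, 3.06 and 2.67 TPM in MC38-P, 9.82, 7.32 and 11.07 TPM in MC38-LM3a and 12.79, 13.60 and 11.17 TPM in MC38-LM3b. The lines did not overlap, and the log2 fold change was 1.27 (adjusted p = 0.000381) in MC38-LM3a and 1.66 (adjusted p = 5.22e-05) in MC38-LM3b. Its promoter window held neither the ISRE core nor the GAS core.

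Of the 18 tested genes of the interferon gamma pathway (receptors, kinases, transcription factors and feedback regulators), 6 rose and 0 fell in MC38-LM3a, and 14 rose and 0 fell in MC38-LM3b. The shares of all tested genes that rose were 14.1% and 35.6%. Both counts of rises include Batf2, which passed the filter only through its derivative libraries. The list's medians were 0.31 and 0.57, against -0.00016 and 0.21 over all tested genes. Ifng itself was not on the tables. The receptor chain gene Ifngr1 rose by 0.33 (adjusted p = 0.00650) in MC38-LM3a and by 0.54 (adjusted p = 0.000245) in MC38-LM3b, and Ifngr2 had -0.24 (adjusted p = 0.146) and -0.09 (adjusted p = 0.545). The kinase Jak1 had 0.32 (adjusted p = 0.126) and rose by 0.60 (adjusted p = 0.00630), and Jak2 had 0.04 (adjusted p = 0.895) and rose by 0.44 (adjusted p = 0.0371). Without the filter the call of Jak2 in MC38-LM3b was lost at the same log2 fold change (adjusted p = 0.0661). Irf1 had 0.18 (adjusted p = 0.144) and rose by 0.26 (adjusted p = 0.0281) from a mean of 54.9 TPM in MC38-P. The largest rise of the list on the log2(TPM + 1) scale was that of Nlrc5, the transactivator of MHC class I genes, at 1.51 (adjusted p = 0.000224) and 2.11 (adjusted p = 1.87e-05). By the ratio of mean TPM it was that of Batf2, named after its values were seen. Its parental mean was 0.127 ± 0.0321 TPM (SD, n = 3), and the derivative means were 13.3-fold and 14.6-fold that level. The parental level is close to 0, so the size of these ratios is uncertain. The rise of Batf2 is also in part set by the filter. The counterpart of Nlrc5 for class II, Ciita, was listed at no more than 0.08 TPM.

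Genes for the machinery that places Gbp and Irg proteins on vacuoles, the ATG8 conjugation system and its partners, were called higher for 10 of 18 tested in MC38-LM3a and 11 of 18 in MC38-LM3b, with 0 lower in each. The list's medians were 0.29 and 0.33, against -0.00016 and 0.21 over all tested genes, of which 14.1% and 35.6% rose. Trim21, a ubiquitin ligase recruited to vacuoles, rose the most, by 0.75 (adjusted p = 0.00137) and 0.97 (adjusted p = 0.000199). Among partners in the inflammasome and cell death, 3 of 8 tested genes rose and 1 fell in MC38-LM3a, and 6 rose and 1 fell in MC38-LM3b. Of all tested genes, 14.1% rose and 13.8% fell in MC38-LM3a, and 35.6% rose and 11.2% fell in MC38-LM3b. Nlrp3 is counted among the risen genes in each derivative. It passed the filter only through its derivative libraries, so its rise is in part set by the filter. The protease Casp1 rose from 7.27 ± 0.650 TPM in the parental line to 30.8 ± 2.59 TPM in MC38-LM3a and to 37.7 ± 1.57 TPM in MC38-LM3b (SD, n = 3), by 1.94 (adjusted p = 4.11e-07) and 2.23 (adjusted p = 1.10e-07) on the log2 scale. The pore-forming Gsdmd fell by 0.33 (adjusted p = 0.00433) and by 0.22 (adjusted p = 0.0197). Of the 10 enzymes that prenylate, myristoylate or extract such proteins from membranes, 0 were called in MC38-LM3a, where 2 had an unadjusted p under 0.05 (limma), and 3 rose and 0 fell in MC38-LM3b, a share below the 35.6% of all tested genes. Without the filter 1 of the 10 rose in MC38-LM3b, against 23.6% of 16395 genes.

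The tested genes outside the members whose profile over the 9 libraries lay closest to the members' median profile were Krcc1, Loxl3, Tcaf1, Tmem71 and Osbpl5. The root mean square differences on the log2 scale were 0.0453 for Krcc1 and 0.0711 for Osbpl5, and those of the members themselves ran from 0.0688 (Irgm1) to 0.255 (Iigp1). Krcc1 had 22.18, 20.14 and 19.52 TPM in MC38-P, 35.24, 34.29 and 37.03 TPM in MC38-LM3a and 43.96, 43.20 and 41.35 TPM in MC38-LM3b. Irgm1 was thus the member nearest to the shared pattern, with a step from MC38-P to MC38-LM3a larger than that from MC38-LM3a to MC38-LM3b.

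Because macrophages and other host cells express these GTPases, markers of such cells were read in the same libraries. In bulk RNA, fewer cells of a type and less RNA per cell cannot be told apart. Of 11 macrophage markers 7 were listed, and only Cd68 and Cd14 reached 1 TPM. The summed level of the list ran from 38.9 to 40.2 TPM in MC38-P, from 48.9 to 53.7 TPM in MC38-LM3a and from 55.7 to 60.1 TPM in MC38-LM3b. Both genes rose in each derivative, where 14.1% (MC38-LM3a) and 35.6% (MC38-LM3b) of all tested genes rose. The defining markers Ptprc, Csf1r, Itgam, Fcgr1 and Lyz2 were at no more than 0.28 TPM in any library. Of T and NK cell markers Cd8a alone was listed, at no more than 0.18 TPM, and hepatocyte markers did not exceed 0.31 TPM. The highest endothelial value was 1.39 TPM. Stellate cell and fibroblast markers summed to between 140 and 177 TPM in MC38-P, 56.0 and 75.4 TPM in MC38-LM3a and 68.2 and 74.5 TPM in MC38-LM3b, mostly as Col3a1, with Dcn at no more than 0.13 TPM. Of the 5 tested, 3 fell in each derivative, where 13.8% (MC38-LM3a) and 11.2% (MC38-LM3b) of all tested genes fell. Pdgfrb rose in MC38-LM3b by 0.88 (adjusted p = 0.000695). The labels call the cells epithelial: Krt8, Krt18 and Krt19 were abundant, whereas Cdh1 was at no more than 0.08 TPM and Vil1 at no more than 0.13 TPM. Of 6 tested epithelial markers, 4 fell in both derivatives, and of all tested genes 13.8% fell in MC38-LM3a and 11.2% in MC38-LM3b. Among the 4, Epcam fell by 1.14 (adjusted p = 9.61e-05) and by 1.07 (adjusted p = 0.000104) on the log2 scale. Cdx2, also among the 4, passed the filter only through MC38-P, so its fall is in part set by the filter. In MC38-LM3a the other 2 tested epithelial markers, Krt19 and Krt20, rose. Krt20 reached 1 TPM only in derivative libraries, so its rise is in part set by the filter. The 10 listed markers summed to between 2004 and 2319 TPM in MC38-P, 1592 and 1812 TPM in MC38-LM3a and 1585 and 1630 TPM in MC38-LM3b. The part of these markers, and of Cd68 and Cd14, in the GTPase result was not tested.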

How the data were processed

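Poly(A) RNA was sequenced on the DNBSEQ platform from the parental line and from each derivative, with 3 replicates per line. The authors deposited expression in TPM, rounded to 2 decimals, for 16399 genes per library, each file holding 1 sample. The submitters' processing notes name HISAT and GRCm39, and the tool that made the TPM values is not given in the sources used here. The tables hold no counts, so the count model of the study's methods could not be applied, the depth is unknown and no counting error is given.

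The 10 members and all gene lists were chosen with earlier results of these data known. Values were transformed to log2(TPM + 1) and fitted in R 4.3.3 with limma 3.58.1, with 1 mean per line over all 9 libraries and a trended prior variance (empirical Bayes), for the 11287 genes that reached 1 TPM in 3 or more libraries. The Benjamini-Hochberg adjustment covered all tested genes, and tests are two-sided. The thresholds for a DEG (adjusted p-value under 0.05, absolute log2 fold change above 1) follow the study's methods. The procedure was tested on simulated data.

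Alternatives changed the pseudocount (0.1), the filter, the libraries in the fit, the normalization (quantile, centring on the median) and the GC content and transcript length correction (loess, span 0.3, GENCODE M21 transcripts for 98.3% of the tested genes), added a replicate block, or left out each library. Leaving out replicate 3 of both MC38-P and MC38-LM3a, and combining the pseudocount of 0.1 with no filter, were chosen after seeing the data. Whether the replicate numbers pair the libraries was not tested.

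Genes named were the members, tested GTPases of the further list, genes of the interferon gamma pathway chosen by name (1 of them is not reported here), the gene with the largest mean rise and fall called in both derivatives in each other list, the nearest tested neighbours of the members' clusters, and the 5 tested genes closest to the median member profile. Others (Ciita, Ifng and the cell type markers) were named for their role, and Batf2, Nlrp3, Gbp4 and Gbp9 after their values were seen. Promoter windows and neighbour order came from RefSeq tables of GRCm38.p6.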

Additional observations from a re-analysis of the deposited data

How the results depend on the processing

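The rises of Gbp2, Gbp7, Igtp, Irgm1 and Irgm2 in both derivatives, and that of Gbp3 in MC38-LM3b, passed the threshold in all 19 alternatives, and that of Tgtp2 in MC38-LM3b in 18 of 19. Iigp1 dropped below the filter whenever a MC38-LM3b library was left out, so its rise there was not tested in those settings. Single members kept their direction and call in 133 of 148 alternative values in MC38-LM3a and in 148 of 149 in MC38-LM3b, both against MC38-P.

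In MC38-LM3a the members' DEGs numbered 4 with a pseudocount of 0.1, 5 with that and no filter, and 1 to 2 with any 1 library left out, against 1. The members' median of 0.84 became 0.92 with the pseudocount of 0.1 (with or without the filter), 0.62 without the filter, 0.92 with only the 2 lines compared, 0.66 without both replicates 3, and 0.73 to 0.92 with any 1 library left out. In MC38-LM3b the DEGs numbered 3 after the GC content and length correction, 2 after quantile normalization or centring, and 8 with the pseudocount of 0.1 and no filter, against 5. The median of 1.09 became 1.32 with the pseudocount of 0.1 (with or without the filter), 0.98 without the filter, 0.88 after the correction, 0.86 after quantile normalization or centring, and 1.02 to 1.20 with any 1 library left out. Between the derivatives, 0 to 6 members were called with any 1 library left out (6 without MC38-LM3a replicate 3), and 6 without both replicates 3, where 65.0% of all tested genes were higher in MC38-LM3b. Their median of 0.35 became 0.18 after the correction, 0.12 after quantile normalization or centring, 0.26 to 0.43 with any 1 library left out and 0.43 without both replicates 3. Gbp2 reversed to -0.10 after quantile normalization and -0.077 after centring, and Tgtp2 to -0.012 after the correction, -0.080 after quantile normalization and -0.077 after centring. The cause was not tested.

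With a replicate block, 5 members rose in MC38-LM3a in place of 7, against 9.75% of all tested genes (Gbp3 at an adjusted p of 0.056 and Tgtp2 lost the call), and no other member's call changed. With the block and the correction together, 7 rose (24.4% of all tested genes), the MC38-LM3b DEGs were 3, the medians were 0.88 against MC38-P and 0.18 between the derivatives, and Tgtp2 reversed to -0.012 between them. Same-numbered libraries of MC38-P and MC38-LM3a correlated at -0.66 to -0.17, against -0.46 to 0.55 for differently numbered ones. Pairs with MC38-LM3b correlated at 0.035 to 0.075 where the numbers matched and at -0.063 to 0.0073 where they did not. Whether the numbers pair the libraries was not tested. Depth is unknown, which limits Gbp5, Gbp6 and Iigp1 most.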
